A study of Mus musculus with 6 samples.

Results

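The 40 genes described here encode the core of the autophagy and lysosome system: 21 act in autophagy or its transcriptional control, and 19 are lysosomal membrane proteins, lumenal proteins and subunits of the proton pump. They were listed by gene symbol for their roles in the pathway, with no threshold on measured values but with earlier results of these data known, and all 40 were found among the 45777 genes listed. All 40 also had reads in all 6 libraries and were therefore among the 17274 genes tested. Each library was made from the whole-liver RNA of 1 male mouse on a high-fat diet (HFD), for 6 mice in all. The LT group (3 mice) carried floxed alleles of Fpn, the gene for the iron exporter ferroportin, and no Cre. The Fpn-LKO group (3 mice) carried the same floxed alleles with Alb-Cre, in which the albumin promoter drives Cre recombinase, so that ferroportin was to be lost from hepatocytes and kept in the other cells of the liver. The floxed allele was made on a 129S background and the strain label of all 6 mice is C57BL/6. The mice began the diet at 8 weeks of age, and the time on it is not given for these libraries in the sources used here. The comparison asks how the transcripts of the pathway differ between steatotic livers with and without hepatocyte ferroportin.

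Autophagy encloses cytoplasm in a double membrane, the autophagosome, which then fuses with the lysosome, where acid hydrolases degrade the content. The proteins of the ATG8 family are attached to lipid on the growing membrane and bind cargo receptors such as p62, and the receptor NCOA4 carries ferritin along this route, so that stored iron is set free in the lysosome. The transcription factors TFEB and TFE3 bind the CLEAR motif in the promoters of many lysosomal genes, and in the liver the pathway also degrades lipid droplets.

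The core of the CLEAR motif was searched on both strands in promoter windows reaching from 250 bases before to 50 bases after each annotated start in RefSeq (GRCm38.p6). The 8 letters searched were TCACGTGA, which read the same on both strands and contain the E-box CACGTG. A window was at hand for 33 of the 40 genes, and 7 of these 33 (21.2%) held the core, against 304 of 27025 genes (1.12%) over the whole table. Stretches of 30 bases around the core are shown for these 7 genes because TFEB and TFE3 bind the CLEAR motif in many lysosomal genes. Whether TFEB or TFE3 act through these stretches was not tested. The core is in capitals, and the gene's own strand is written 5′ to 3′.
Atg3: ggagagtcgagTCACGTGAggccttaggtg (chr16:45158746-45158775, plus strand)
Atp6v0d1: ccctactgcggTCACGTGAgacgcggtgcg (chr8:105566050-105566079, minus strand)
Atp6v1a: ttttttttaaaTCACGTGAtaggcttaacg (chr16:44139373-44139402, minus strand)
Ctsa: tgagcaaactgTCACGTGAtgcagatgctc (chr2:164833749-164833778, plus strand)
Ctsd: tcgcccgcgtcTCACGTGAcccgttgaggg (chr7:142387908-142387937, minus strand)
Gla: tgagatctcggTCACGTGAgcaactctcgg (chrX:134601182-134601211, minus strand)
Mcoln1: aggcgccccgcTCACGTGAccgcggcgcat (chr8:3500462-3500491, plus strand)
The first base of the core lay 72 bases before the annotated start in Atg3, 46 in Mcoln1, 99 in Ctsd, 195 in Gla, 132 in Atp6v1a, 13 in Ctsa and 4 in Atp6v0d1. For Ctsa and Atp6v1a that start lies inside the span of the gene, and Ctsa and Gla each held a second core in their window. The shorter E-box was found in 12 of the 33 genes (36.4%) and in 8.09% of all genes with a window. Of 121 other genes of the pathways with a window, named further on, 6.61% held the CLEAR core and 21.5% the E-box. These matches describe letters in a window and say nothing of binding.

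Total counts were between 43086184 and 47778683 per library, and the members had between 101 reads (in the library where the count was lowest) and 31362. Slc40a1, which encodes ferroportin, had 154, 180.3 and 126 CPM (counts divided by the scaled library total, which allows libraries but not genes to be compared) in the LT livers and 143, 143 and 176 CPM in the livers labelled Fpn-LKO, which gave a log2 fold change of 0.0073 with SE 0.16 (SE, standard error), at an adjusted p of 0.995 from edgeR. Reads of the deleted gene were therefore no fewer under that label, and every direction given here rests on the labels. The study reports deletion of ferroportin in hepatocytes of this mouse line, from assays of primary hepatocytes and from immunostaining. Whole-liver RNA also comes from cells that were to keep the gene, and their part in these reads was not tested. All 10 hepatocyte markers were present at 239 CPM or more in every library. Their log2 fold change was above 0 for 6 and under 0 for 4. Hnf4a was higher in Fpn-LKO without overlap (0.32, unadjusted p = 0.0328, adjusted p = 0.982 in edgeR's test). Apob was lower without overlap (-0.18, unadjusted p = 0.454, adjusted p = 0.995 in edgeR's test). The summed level of 12 Kupffer cell and macrophage markers, none of them at 0, was 403 to 517 CPM in the LT livers and 346 to 766 CPM in the libraries labelled Fpn-LKO, with the highest value in replicate 3. The sum of 6 lipid-associated macrophage markers was 80.1 to 168 CPM and 130.1 to 328 CPM, where replicate 1 was highest and Trem2 was at 0 in at least 1 library. Within this list Gpnmb was at 0.0803 to 0.3002 CPM in the LT livers and 0.733 to 0.881 CPM in Fpn-LKO, without overlap (log2 fold change 1.98, unadjusted p = 0.00547, adjusted p = 0.823 in edgeR's test), and Itgax at 0.402 to 0.554 and 0.493 to 2.81 CPM (unadjusted p = 0.0280, adjusted p = 0.982 in edgeR's test). The log2 fold change was -0.12 for Trem2, -0.66 for Spp1, 0.18 for Cd9 and 0.999 for Cd36, each of these with overlapping groups. The sum was carried by Cd36 and Spp1, and the part of lipid-associated macrophages in the values of the lysosomal genes was not tested. The sum of 8 endothelial markers was 327 to 398 CPM in the LT livers and 314 to 323 CPM in Fpn-LKO, so that these groups did not overlap (exact two-sided permutation test, p = 0.1, the smallest possible for 3 against 3). Taken singly, the groups overlapped for each of the 8, and the log2 fold change was under 0 for 5 and above 0 for 3. Those above 0 were Lyve1 (1.30, unadjusted p = 0.0446, adjusted p = 0.982 in edgeR's test), Pecam1 (0.34) and Tek (0.26). Stellate cell markers summed to 384 to 444 CPM and 405 to 458 CPM, a sum carried by Reln and Dcn. Of these 8 markers 7 had a log2 fold change above 0. Pdgfrb (0.47, unadjusted p = 0.0460) and Col1a1 (1.06, unadjusted p = 0.0745) were higher in Fpn-LKO without overlap, both at an adjusted p of 0.982 in edgeR's test. Red blood cell markers summed to 351 to 941 CPM and 474 to 1243 CPM, and all 5 had a log2 fold change above 0 with overlapping groups. The sums of cholangiocyte, neutrophil and lymphocyte markers were under 6 CPM in every library, with Krt19, Krt7, Cftr, Retnlg, Ly6g, Mpo, Cd3e, Cd3g, Cd8a, Cd79a and Nkg7 at 0 in at least 1 library. RNAs without a poly(A) tail took 7.65% to 8.76% of the counts in LT and 3.29% to 10.2% in Fpn-LKO.

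The levels of the genes spanned more than 2 orders of magnitude. By TPM, which is scaled to transcript length and so allows genes to be compared, the mean over the 6 livers ran from 1.62 for Tfeb to 288 for Lamp2. The most abundant after Lamp2 were Lamp1 (274 TPM), the protease gene Ctsd (235 TPM), the ATG8 family gene Gabarapl1 (222 TPM), the cargo receptor gene Sqstm1 (203 TPM), and the cathepsin genes Ctsz (179.8 TPM) and Ctsl (168 TPM). The transcription factor gene Tfe3 (1.79 TPM), the galactosidase gene Gla (2.98 TPM), the phosphoinositide effector gene Wipi1 (3.18 TPM) and the kinase gene Ulk1 (5.07 TPM) were the lowest after Tfeb.

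**Figure D1:**
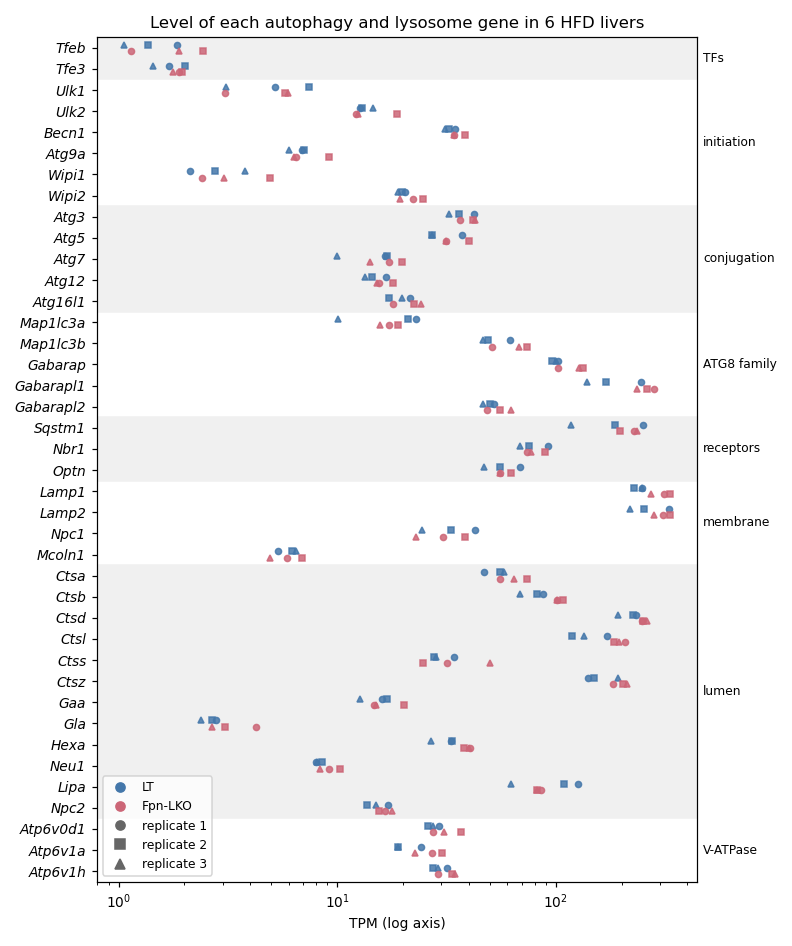
Level in TPM (log axis) of each of the 40 autophagy and lysosome genes, grouped by role, with 1 point per liver, blue for LT and red for Fpn-LKO, and the replicate shown by the shape of the point. The order from 1.62 TPM for Tfeb to 288 TPM for Lamp2 is much wider than the distance between the genotypes of any gene.

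None of the 40 genes passed an adjusted p-value of 0.05 in the comparison of the genotypes (edgeR, quasi-likelihood or QL test, adjusted after Benjamini and Hochberg over every gene tested), and their adjusted p-values ran from 0.982 to 0.995. Of the 17274 genes 4 passed (0.0232%). An unadjusted p under 0.05 was found for 3 of the 40, Ctsb, Ctsl and Gabarapl1, all with higher counts in the libraries labelled Fpn-LKO, beside 4.80% of all genes in either direction and 2.62% in that direction. With DESeq2's Wald test 0 members passed the adjusted and 3 the unadjusted threshold, and with edgeR's exactTest 0 passed either. The CPM of the genotypes did not overlap for 4 members (10.6% of all genes), of which 3 were higher in Fpn-LKO (5.25% of all genes), namely Ctsb, Ctsl and Atp6v1a, and 1, Nbr1, was lower. The log2 fold change was above 0 for 32 of the 40 genes, against 49.4% of all genes, and its median was 0.082 against -0.0040 over all genes tested. On the TPM scale, described further on, it was above 0 for 36 of the 40. There the median over all genes tested was itself 0.083 (limma on log2(TPM + 1)), and the share of all genes above 0 was not counted. By counts, 27 of the 40 were above 0 without Fpn-LKO replicate 3, which had the highest macrophage marker sum, and also 27 without LT replicate 1. The medians were then 0.10 and 0.057. The number above 0 was 28 without Fpn-LKO replicate 2, 29 without Fpn-LKO replicate 1, 31 without LT replicate 3 and 32 without LT replicate 2. Without Fpn-LKO replicate 3 only Atp6v1a was at an unadjusted p under 0.05. Without Fpn-LKO replicate 1 no member was under that p, and without LT replicate 2 none was either. No p-value is given for the list, whose members share the same 6 livers and are not independent of each other.

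The fold changes were small, and their intervals set a bound on them. They ran from -0.31 for Lipa to 0.42 for Gabarapl1 on the log2 scale, with standard errors of 0.097 to 0.33. The 95% interval of every one of the 40 genes lay inside a 2-fold difference in either direction, from 0.531-fold to 1.84-fold at the widest, and that of 28 genes lay inside a 1.5-fold difference. Larger changes in these transcripts than that are outside the intervals, whereas a missed threshold does not show that the groups were alike.

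**Figure D2:**
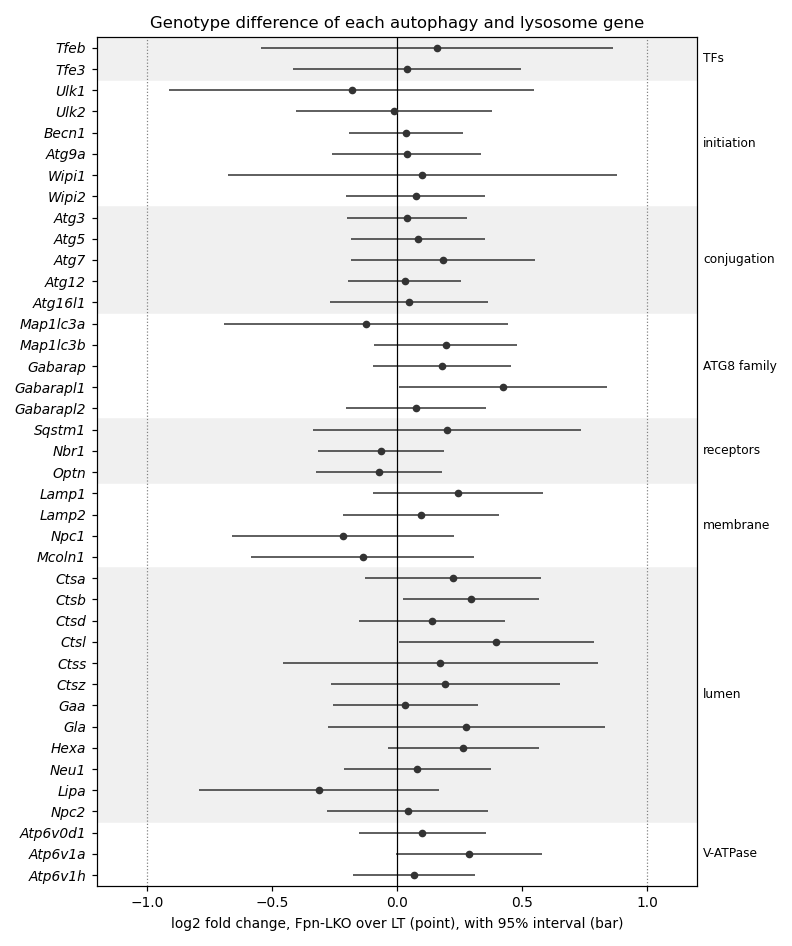
Log2 fold change of Fpn-LKO over LT for each of the 40 genes (points) with its 95% interval (bars) from edgeR, grouped by role. All intervals stay between the dotted lines at a 2-fold difference, and 32 of the 40 points lie to the right of 0.

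The transcription factors are considered first. Tfeb, the main activator of lysosomal genes, had 3.54, 2.91 and 2.44 CPM in the LT livers and 2.16, 4.18 and 3.60 CPM in Fpn-LKO, and the lowest and the highest value were both from Fpn-LKO livers. Its log2 fold change was 0.16 with SE 0.30, so that at this level the interval reached from -0.54 to 0.86. Tfe3, a related factor that binds the same motif, had 3.997, 5.24 and 4.13 CPM in the LT livers and 5.03, 4.26 and 4.46 CPM in Fpn-LKO, with a log2 fold change of 0.041 (SE 0.19). The groups overlapped for both genes, and the sign of Tfeb turned without Fpn-LKO replicate 2 and that of Tfe3 without LT replicate 1, LT replicate 3 or Fpn-LKO replicate 1.

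Initiation and nucleation of the membrane are the work of 6 of the genes, none of which had an unadjusted p under 0.05. Ulk1, the kinase that starts autophagy, had 19.3, 31.0 and 14.5 CPM in the LT livers and 13.1, 20.3 and 23.7 CPM in Fpn-LKO. Its replicates were among the most variable of the members, and the log2 fold change of -0.18 turned into 0.18 without LT replicate 2. The second kinase gene, Ulk2, was at 62.5 ± 10.6 CPM in the LT livers and 61.9 ± 10.2 CPM in Fpn-LKO (SD, n = 3 each). Becn1, a subunit of the lipid kinase complex that nucleates the membrane, showed close agreement between livers, from 48.8 to 54.4 CPM in the LT livers and 51.2 to 54.5 CPM in Fpn-LKO (log2 fold change 0.035, SE 0.098). Atg9a, the membrane protein that supplies lipid vesicles, was at 20.4 ± 1.31 and 20.9 ± 2.55 CPM, and 1072 of its exon bases overlap Gm29253 on the same strand, which has no row of that name in the table. The phosphoinositide-binding proteins Wipi1 and Wipi2 had log2 fold changes of 0.10 (SE 0.33) and 0.075 (SE 0.12), and the groups of all 6 genes overlapped.

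The 5 genes of the conjugation machinery, which attaches ATG8 proteins to lipid, had log2 fold changes between 0.031 and 0.18, with overlapping groups in each. Atg3, the enzyme that transfers ATG8 to phosphatidylethanolamine and 1 of the genes with a CLEAR core, had 60.4, 58.0 and 56.7 CPM in the LT livers and 59.2, 55.9 and 65.0 CPM in Fpn-LKO. Atg12, the ubiquitin-like partner of ATG5, had the narrowest range of the 5, at 29.2 ± 0.441 and 29.8 ± 1.30 CPM, with a log2 fold change of 0.031 and an interval from -0.19 to 0.26. Atg5 was at 56.5 ± 5.64 and 59.9 ± 3.56 CPM, and Atg16l1, which places the conjugation complex on the membrane, at 47.8 ± 5.39 and 49.4 ± 6.26 CPM. The activating enzyme Atg7 had the largest difference of the 5, at 33.2 ± 5.31 and 37.7 ± 5.05 CPM (log2 fold change 0.18, SE 0.16).

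Of the 5 ATG8 family genes, Gabarapl1 was the most abundant by TPM and had the largest fold change of all 40 members. It had 309, 240.3 and 216 CPM in the LT livers and 402, 308 and 317 CPM in Fpn-LKO. The highest LT liver, replicate 1, lay just above the lowest Fpn-LKO liver, so the groups overlapped. Gabarapl1 had a log2 fold change of 0.42 (SE 0.18, interval 0.009 to 0.84, unadjusted p = 0.0464, adjusted p = 0.982 in edgeR's QL test), and it stayed between 0.29 and 0.59 over all settings tried, with adjusted p-values of 0.818 to 1. It spans 129533192 to 129542331 of chromosome 6 (GRCm38) and shares 377 exon bases with 1700101I11Rik on the opposite strand, which was at 0.183 CPM.

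Map1lc3b, which encodes the LC3B protein used as a marker of autophagosomes, had 108, 95.9 and 99.7 CPM in the LT livers and 101, 121 and 126 CPM in Fpn-LKO (log2 fold change 0.19, SE 0.12). Gabarap had 81.6, 85.8 and 97.8 CPM in the LT livers and 92.5, 100.1 and 108 CPM in Fpn-LKO (log2 fold change 0.18, SE 0.12). In both genes 2 of the 3 Fpn-LKO livers lay above every LT liver. Map1lc3a was at 14.7 ± 4.72 and 13.5 ± 1.13 CPM, with LT replicate 3 at 9.23 CPM, the lowest of the 6 livers, and its log2 fold change of -0.13 became -0.37 without that liver and was just above 0 on the TPM scale. Gabarapl2 was at 38.3 ± 1.72 and 40.4 ± 5.03 CPM. Gabarapl2 and Map1lc3b have near-identical pseudogenes, of which the most abundant with a row in the table were Gm3724 at 6.23 CPM and Gm6055 at 3.02 CPM, so reads could have been assigned to either copy and the values of both genes are uncertain. Summed over the family, the level was 552, 479 and 462 CPM in the LT livers and 648, 579 and 609 CPM in Fpn-LKO, a sum to which Gabarapl1 contributed the most.

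The 3 cargo receptors did not share a direction by counts, whereas on the TPM scale all 3 fold changes were above 0. Sqstm1, which encodes p62, had 357, 299 and 204 CPM in the LT livers and 369.6, 262 and 355 CPM in Fpn-LKO, a log2 fold change of 0.20 with SE 0.23. The LT livers alone spanned 204 to 357 CPM, which is wider than the difference between the means. Nbr1, a receptor related to p62, had 303, 277 and 279 CPM in the LT livers and 277, 275 and 270.1 CPM in Fpn-LKO. Its groups did not overlap, but the gap between them was 0.366 CPM, the log2 fold change was -0.063 (SE 0.11) and it was above 0 on the TPM scale. Optn, the receptor optineurin that takes part in mitophagy, was at 119 ± 10.1 and 114 ± 4.03 CPM, with overlapping groups, and its sign was also the other way on the TPM scale.

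Ncoa4, the ferritin receptor, is not among the 40 genes but is the receptor through which autophagy meets iron storage. It had 195, 189 and 170.0 CPM in the LT livers and 216, 204 and 204 CPM in Fpn-LKO, and every Fpn-LKO liver lay above every LT liver. For Ncoa4 the log2 fold change was 0.17 (SE 0.11, unadjusted p = 0.156, adjusted p = 0.982 in edgeR's QL test).

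Among the 4 lysosomal membrane proteins, the 2 structural glycoproteins were by TPM the most abundant of all members and had positive fold changes, whereas the lipid exporter and the ion channel had negative ones. Lamp1 had 394, 404 and 483 CPM in the LT livers and 562, 495 and 459 CPM in Fpn-LKO (log2 fold change 0.24, SE 0.15), and only LT replicate 3 reached into the range of the other group. Lamp2 had 629.9, 547 and 526 CPM in the LT livers and 636, 608 and 577 CPM in Fpn-LKO (log2 fold change 0.097, SE 0.13). Npc1, which moves cholesterol out of the lysosome, had 157, 138 and 110.3 CPM in the LT livers and 126, 133 and 89.99 CPM in Fpn-LKO, a log2 fold change of -0.21 with SE 0.19. Mcoln1, the calcium and iron channel of the lysosome and 1 of the genes with a CLEAR core, was at 9.62 ± 1.84 and 8.75 ± 1.15 CPM (log2 fold change -0.14, SE 0.19). Its longest transcript holds a stretch of up to 411 bases that is at least 90% identical in transcripts of 64 other genes, so its count is uncertain. The groups overlapped for all 4 genes.

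The 12 proteins of the lysosomal lumen comprised 6 cathepsins, 5 other hydrolases and the cholesterol carrier Npc2. For 11 of the 12 the log2 fold change was above 0 (49.4% of all genes), with a median of 0.18, and 2 had an unadjusted p under 0.05, both higher in Fpn-LKO (2.62% of all genes). Ctsb, which encodes the cysteine protease cathepsin B, had 295, 309 and 282 CPM in the LT livers and 386, 341 and 361 CPM in Fpn-LKO. All 3 Fpn-LKO livers lay above all 3 LT livers, with a gap of 31.6 CPM. Its log2 fold change was 0.30 (SE 0.12, interval 0.026 to 0.57, unadjusted p = 0.0358, adjusted p = 0.982 in edgeR's QL test), with adjusted p-values of 0.621 to 1 over all settings. Ctsb spans 63122462 to 63145923 of chromosome 14, and its exons share 774 bases with Fdft1 on the opposite strand, which was at 45.4 CPM with a log2 fold change of -0.53. The libraries came from a stranded kit, but whether the counting used the strand is not stated, so reads in the shared bases cannot be assigned to 1 gene with certainty.

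Ctsl, which encodes the cysteine protease cathepsin L, had 427, 331 and 410.1 CPM in the LT livers and 587, 432 and 519 CPM in Fpn-LKO. The groups did not overlap, although LT replicate 1 and Fpn-LKO replicate 2 were only 4.49 CPM apart. For Ctsl the log2 fold change was 0.40 (SE 0.17, interval 0.006 to 0.79, unadjusted p = 0.0473, adjusted p = 0.982 in edgeR's QL test), with adjusted p-values of 0.781 to 1 over all settings. Ctsl spans 64361890 to 64370772 of chromosome 13, and 395 of its exon bases overlap Gm49230 on the same strand, a pseudogene with no row of that name in the expression table.

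The other cathepsins differed less beside the spread of the livers. Ctsd, the main aspartic protease of the lysosome, had 316, 345 and 320.4 CPM in the LT livers and 384, 322 and 377 CPM in Fpn-LKO (log2 fold change 0.14, SE 0.13). Ctsa, the carboxypeptidase that protects the sialidase Neu1, had 111, 106 and 129 CPM in the LT livers and 119.6, 123 and 160.3 CPM in Fpn-LKO (log2 fold change 0.22, SE 0.15). Both genes hold a CLEAR core, and the groups overlapped for both. Ctsd shares 671 identical transcript bases with Gm49369, which overlaps it on the same strand and has no row of that name in the table. Ctsz, a carboxypeptidase, had 144, 172 and 242 CPM in the LT livers and 212, 195 and 229.8 CPM in Fpn-LKO, and its log2 fold change of 0.19 became 0.43 without LT replicate 3, the highest of the 6 livers.

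Ctss, the cathepsin of antigen-presenting cells, had 32.7, 29.9 and 33.1 CPM in the LT livers and 34.6, 22.2 and 51.1 CPM in Fpn-LKO. The Fpn-LKO livers held both the lowest and the highest value, while the LT livers were close together. In the same Fpn-LKO livers the macrophage markers summed to 427, 346 and 766 CPM, in the same order. In the LT livers they summed to 403, 517 and 415 CPM, and there the liver with the highest sum had the lowest Ctss. The part of these cells in the value of Ctss was not tested. The log2 fold change of 0.17 (SE 0.27) became -0.17 without Fpn-LKO replicate 3. In RNA from whole liver, fewer cells of a type and less RNA per cell cannot be told apart.

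The remaining hydrolases included the lowest fold change of all 40 genes. Lipa, the lysosomal acid lipase that splits cholesteryl esters and triglycerides, had 267, 258 and 162 CPM in the LT livers and 206, 163 and 184 CPM in Fpn-LKO. LT replicate 3 was the lowest of the 6 livers and the other LT livers were the highest, so the groups overlapped. The fold change on the log2 scale was -0.31 (SE 0.21, unadjusted p = 0.168, adjusted p = 0.982 in edgeR's QL test), and without LT replicate 3 it was -0.51 (unadjusted p = 0.00863 and adjusted p = 0.772 by the same edgeR test). Hexa, a subunit of beta-hexosaminidase, had 46.7, 53.0 and 46.7 CPM in the LT livers and 65.1, 50.2 and 60.6 CPM in Fpn-LKO (log2 fold change 0.27, SE 0.13, unadjusted p = 0.0754 in edgeR's QL test). Gla, the alpha-galactosidase A, had 6.05, 6.51 and 6.31 CPM in the LT livers and 10.5, 6.21 and 6.16 CPM in Fpn-LKO, so that its log2 fold change of 0.28 came from replicate 1 and was -0.023 without it. The acid alpha-glucosidase Gaa, the sialidase Neu1 and the cholesterol-binding protein Npc2 had log2 fold changes of 0.033, 0.081 and 0.042, each smaller than its standard error of 0.12 to 0.14. Summed over the 12 genes, the lumenal transcripts came to 1749, 1721 and 1740 CPM in the LT livers and 2119, 1763 and 2058 CPM in Fpn-LKO.

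**Figure D3:**
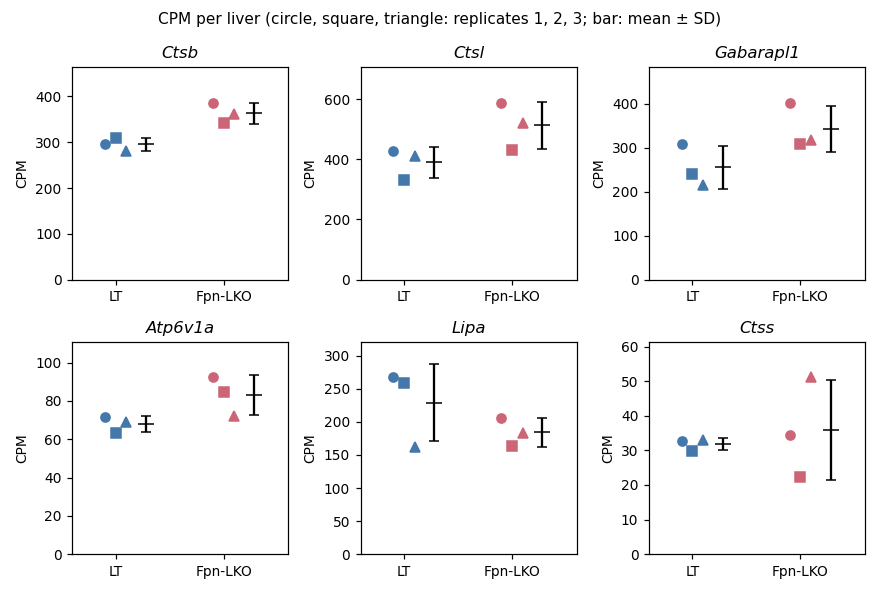
CPM in each liver (circles, squares and triangles for replicates 1, 2 and 3; bars, mean ± SD of 3 livers) for the 4 genes with the largest log2 fold change, and for Lipa and Ctss. The groups do not overlap for Ctsb, Ctsl and Atp6v1a, while Ctss spans 22.2 to 51.1 CPM within Fpn-LKO.

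The V-ATPase pumps protons into the lysosome, and 3 of its subunits are among the 40 genes. Atp6v1a, the catalytic subunit, had 71.6, 63.2 and 69.2 CPM in the LT livers and 92.3, 84.7 and 71.9 CPM in Fpn-LKO. The groups did not overlap, but Fpn-LKO replicate 3 was only 0.267 CPM above the highest LT liver. For Atp6v1a the log2 fold change was 0.29 (SE 0.13, interval -0.0044 to 0.58, unadjusted p = 0.0527, adjusted p = 0.982 in edgeR's QL test). It spans 44085402 to 44139702 of chromosome 16, holds a CLEAR core and has a near-identical stretch of 296 bases in Gm18990. Atp6v0d1, of the membrane sector and also with a core, was at 36.0 ± 2.87 and 38.6 ± 2.15 CPM, and Atp6v1h, a regulatory subunit, at 55.2 ± 1.12 and 57.8 ± 4.98 CPM.

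Between the roles, the median log2 fold change was highest for the ATG8 family and the lumenal proteins (0.18 each), followed by the transcription factors and the V-ATPase subunits (0.10 each). It was 0.047 for the conjugation machinery, 0.037 for initiation, -0.020 for the membrane proteins and -0.063 for the cargo receptors. Over the 21 autophagy genes the median was 0.047, with 16 above 0, and over the 19 lysosomal genes it was 0.14, also with 16 above 0. These are descriptions of a few genes each, and differences between the roles were not tested.

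The members did not stand out in the same way in each liver. Fpn-LKO replicate 1 was the highest of the 6 livers for 15 of the 40 genes and replicate 3 for 9, whereas Fpn-LKO replicate 2 and the LT livers were each the highest for 4. LT replicates 1, 2 and 3 were the lowest for 13, 8 and 9 genes, and the Fpn-LKO livers for 2, 3 and 5. The median of the genes' levels relative to their mean over the 6 livers was -0.077, -0.041 and -0.060 on the log2 scale in LT and 0.053, 0.0037 and -0.019 in Fpn-LKO. These medians did not overlap between the groups, by a margin smaller than the spread within either of them.

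**Figure D4:**
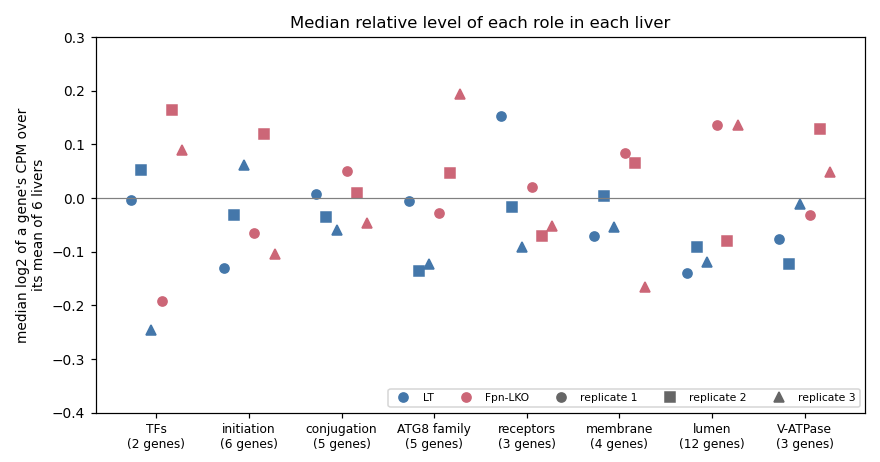
Median over the genes of each role of the log2 ratio of a gene's CPM to its mean over the 6 livers, with 1 point per liver (blue, LT; red, Fpn-LKO; shapes, replicates 1 to 3). The lumenal medians of all 3 Fpn-LKO livers lie above those of the LT livers, while the points of the groups are mixed for every other role.

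The TPM were compared by limma over the 11464 genes whose TPM averaged 1 or more, so that the scale, the test and the set of genes all differed from the comparison of counts over 17274 genes. There the median over all genes tested was 0.083 on the log2 scale and over the members 0.17, with 36 of 40 above 0 (limma on log2(TPM + 1)). At an unadjusted p under 0.05 this comparison gave 441 genes higher and 131 lower, where edgeR on the counts gave 452 and 378, and the parts of the scale, the test and the set of genes were not separated. Relative to the median of all genes the members were 0.084 higher by TPM and 0.086 by counts. TPM did not overlap for 5 members, Ctsb, Ctsd, Ctsl, Hexa and Lamp1, all higher in Fpn-LKO, beside 7.28% of 11464 genes in that direction.

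Among the members with a promoter window, the 7 genes with a CLEAR core had a median log2 fold change of 0.14, from -0.14 for Mcoln1 to 0.29 for Atp6v1a, with 6 above 0. The 26 genes without it had a median of 0.090. Over all tested genes with a promoter window, the 238 genes with a core had a median of 0.014 and those without one 0.0054. Ctsb, Npc1 and Map1lc3a had no window in the table used, and Ctsl and Gabarapl1, with the largest fold changes, had a window without a core.

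**Figure D5:**
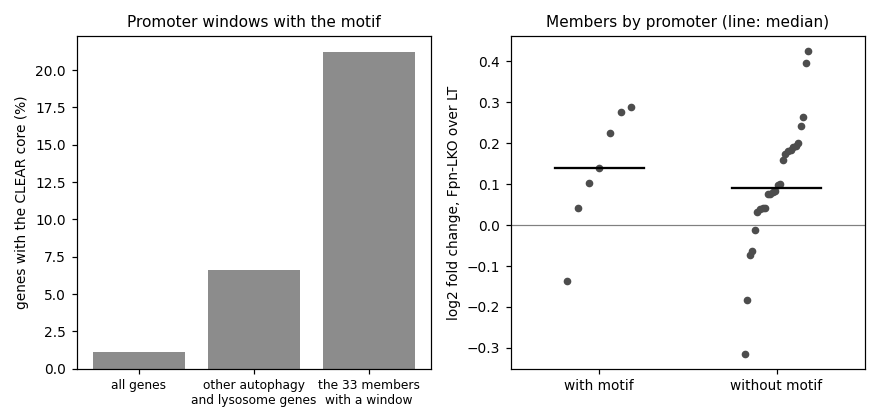
Left, percent of genes whose promoter window holds the CLEAR core, for all genes (1.12%), other genes of the pathways (6.61%) and the 33 members with a window (21.2%). Right, log2 fold change of Fpn-LKO over LT for members with and without the core (points, genes; lines, medians of 0.14 and 0.090).

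Another 149 genes of the same pathways were listed, of which 146 could be tested (Lamp3, Mcoln3 and Atp6v1c2 had too few reads). None passed the adjusted threshold of edgeR's test, with the smallest adjusted p at 0.909, and 8 had an unadjusted p under 0.05, 7 higher and 1 lower, a share of 5.48% beside 4.80% of all genes. The log2 fold change was above 0 for 91 of the 146 (62.3%, beside 49.4% of all genes), with a median of 0.057. Of 39 further hydrolases and cofactors 5 had an unadjusted p under 0.05, all higher in Fpn-LKO (12.8%, beside 2.62% of all genes in that direction), and of 32 further autophagy genes 1. None of 12 further cargo receptors, 25 nutrient-sensing genes and 22 further membrane and sorting proteins did.

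Ppt1, a thioesterase that removes palmitate from proteins, had 24.6, 31.6 and 27.0 CPM in the LT livers and 40.9, 35.3 and 38.3 CPM in Fpn-LKO, without overlap (log2 fold change 0.46, SE 0.13, unadjusted p = 0.00779, adjusted p = 0.909 in edgeR's QL test). Ctsc, the cathepsin that activates proteases of leukocyte granules, had 38.3, 48.8 and 46.2 CPM in the LT livers and 59.7, 60.7 and 119.5 CPM in Fpn-LKO, without overlap. The highest value was in replicate 3, the liver with the highest macrophage marker sum. That sum was 427 and 346 CPM in Fpn-LKO replicates 1 and 2, beside 403 to 517 CPM in the LT livers. The part of macrophages in the value of Ctsc was not tested. The log2 fold changes of Ctsc and of the carboxypeptidase gene Scpep1 were 0.85 (unadjusted p = 0.0167) and 0.31 (unadjusted p = 0.0275), both with an adjusted p of 0.982 by the same edgeR test. Vmp1, which helps form the autophagosome, had 76.6, 80.4 and 89.9 CPM in the LT livers and 141, 92.4 and 106 CPM in Fpn-LKO, again without overlap (log2 fold change 0.46, unadjusted p = 0.0280, adjusted p = 0.982 in edgeR's QL test). Of 16 further V-ATPase subunits 6 were higher in every Fpn-LKO liver than in every LT liver, beside 5.25% of all genes. Among them was Atp6v1g1 (log2 fold change 0.30, unadjusted p = 0.0423 in edgeR's QL test), whereas Atp6v0c, a subunit of the proton-conducting ring, had a log2 fold change of -0.55 (unadjusted p = 0.0375 in edgeR's QL test), with overlapping groups at 28.8 ± 5.51 and 19.6 ± 5.34 CPM.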

How the data were processed

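Liver RNA of 3 LT and 3 Fpn-LKO male mice was analysed, with the groups taken from the genotype labels, all marked as 1 batch. The labels name a stranded mRNA kit, the study's methods a stranded total RNA kit with removal of ribosomal RNA. The submitters' processing notes name bcl2fastq 2.20.0, FastQC 0.11.7, HISAT2 2.1.0, Bowtie2 2.3.4.1, StringTie 2.1.3b and the build mm10. The authors deposited raw read counts per gene, TPM (scaled to transcript length and to an equal total per library) and FPKM, which was not used in any test.

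Counts of the genotypes were compared in R 4.3.3 with edgeR 4.0.16 (quasi-likelihood, QL, test, robust estimation off) after scaling by TMM. Genes were kept where no more than 1 library had 0 reads. Benjamini-Hochberg adjustment was made over all 17274 genes, with a threshold of 0.05. CPM are counts relative to the library size after TMM scaling. Standard errors came from the F statistic and intervals cover 95%. The common biological coefficient of variation was 0.275, so the spread between mice, not the depth, limits most members. Each pair of libraries of a group differed by more than sampling noise.

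The members and the lists were chosen with earlier results of these data known. The naming rule allowed all 40 members, Slc40a1, Ncoa4, and per list of other pathway genes those past the adjusted threshold or up to 3 with the smallest unadjusted p under 0.05. Alternatives were RLE size factors, filterByExpr, no filter beyond 1 read, exactTest, DESeq2 1.42.0, a block for the replicate number, limma 3.58.1 with mean TPM of 1 or more on log2(TPM + 1) and log2(TPM + 0.1), and omission of each mouse. BLAST 2.17.0 was used to look for copies among GENCODE transcripts (90% identity or more over 250 bases). Promoter sequences were taken from RefSeq. The scripts were tested on simulated data.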

Additional observations from a re-analysis of the deposited data

How the results depend on the processing

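None of the 40 members passed the adjusted threshold with edgeR's quasi-likelihood test (3 at an unadjusted p under 0.05), nor under any of the 14 alternatives. At the unadjusted threshold exactTest gave 0 members, and leaving out 1 mouse gave 0 to 3. There were 0 without Fpn-LKO replicate 1 and 0 without LT replicate 2, 1 without Fpn-LKO replicate 3 (Atp6v1a), 2 without LT replicate 1 (Ctsl and Gabarapl1), 2 without Fpn-LKO replicate 2 (Ctsl and Hexa), and 3 without LT replicate 3 (Ctsz, Lipa and Map1lc3a). Over all genes, the count of 4 became 72 with DESeq2, 63 with exactTest, 7 with limma on log2(TPM + 1) and 7 on log2(TPM + 0.1), and 0 to 6 without 1 mouse, with 0 without LT replicate 2 and 1 without LT replicate 1, LT replicate 3 or Fpn-LKO replicate 2. The median log2 fold change of the members was 0.17 and 0.18 on the TPM scales, where 36 members were above 0. The median over all genes tested was 0.083 and 0.097 on these scales. The log2 fold change of Gla ran from -0.023 to 0.41 without 1 mouse, and was reversed without Fpn-LKO replicate 1. Ulk2, Map1lc3a, Nbr1 and Optn were above 0 on both TPM scales. The causes were not tested.

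With the replicate block, 0 genes passed the adjusted threshold (850 at an unadjusted p under 0.05) and 2 members the unadjusted one (Ctsl and Gabarapl1). The numbers do not pair the mice, since deviations of livers with the same number correlated at only 0.13, -0.0095 and 0.045. Replicates 2 and 3 did not correlate best with their own number. Near-identical copies, opposite-strand overlaps and counts of about 100 reads (Tfeb) limit single genes.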
